A study of Homo sapiens with 6 samples.

Results

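Glycolysis, lactate export and the pentose phosphate pathway were followed here through 35 genes, chosen by name from a table of 32896 genes and all found in it. Of them, 30 reached at least 1 FPKM (fragment counts divided by gene length and library depth) in at least 3 of 6 libraries and were tested among 11139 genes. The libraries came from BHT101, an established human line of anaplastic thyroid carcinoma. The SK4 group (n = 3) had received a plasmid that overexpresses SK4, the calcium-activated potassium channel encoded by KCNN4, and the control group (n = 3) a control plasmid. Both groups were transfected with Lipofectamine 2000 in high-sugar DMEM with serum and harvested after 48 h. The treatment label of control library 3 writes BHT102, while its cell line label writes BHT101. The series was set up to look for targets of the channel among all transcripts. Whether replicate libraries go back to separate cultures is not labelled, and p-values here cover the spread between libraries, which may be technical. Values by library are in the order 1, 2, 3 of each group.

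Glycolysis splits glucose into pyruvate in the cytosol. Glucose enters through transporters, is phosphorylated by hexokinase and committed by phosphofructokinase, and the lower steps yield ATP and NADH. Lactate dehydrogenase turns pyruvate into lactate, which leaves with a proton through monocarboxylate transporters. Pyruvate dehydrogenase kinases inhibit pyruvate dehydrogenase, the enzyme complex that uses pyruvate within mitochondria. The pentose phosphate pathway branches off at glucose 6-phosphate and supplies NADPH and ribose. Many steps have several genes whose products differ in kinetics or regulation, and carcinoma cells often run this route at a high rate in the presence of oxygen.

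KCNN4 held 184, 148 and 169 FPKM in SK4 libraries, against 8.31, 8.26 and 8.52 FPKM in control libraries. Every SK4 library lay above every control library (limma log2 fold change 4.23, 95% confidence interval of the fold 16.6 to 21.3, adjusted p = 8.83e-07), which matches the labels. The libraries held an estimated 29600000 to 38500000 fragments, and control library 3 was the shallowest. Epithelial markers were present, with 5 of 5 at 1 FPKM or more and a summed level of 542 to 591 FPKM in SK4 and 527 to 575 FPKM in control libraries. The 6 thyroid follicular markers were all under 1 FPKM (summed 0.43 to 0.52 in SK4 and 0.37 to 0.5 FPKM in control libraries), so the thyroid origin rests on the label. The leukocyte, endothelial and erythroid markers stayed under 1 FPKM, and of the 5 fibroblast markers only LUM passed it.

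The transcript levels of the 35 genes spanned from 0.15 FPKM for SLC2A3 to 3827 FPKM for GAPDH, as means over all 6 libraries. By the rows of the genes themselves, the 4 highest genes all act below aldolase. The rank of ALDOA cannot be given by its row, which shares exons with CTD-2515O10.6, a gene with a mean of 429 FPKM. GAPDH was followed by ENO1 (702 FPKM) and TPI1 (702 FPKM), whose ranges over the libraries overlapped, then PKM (239 FPKM), LDHA (209 FPKM), PGAM1 (192 FPKM) and PGK1 (151 FPKM), whose ranges did not overlap each other. Together the 35 genes made up 2.04% to 2.20% of the summed FPKM in SK4 libraries and 2.10% to 2.26% in control libraries. GAPDH alone gave 1.18% to 1.33% over all libraries. The 5 genes under the filter were SLC2A3, PFKFB2, ALDOC, PDK1 and PDK3.

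**Figure D1:**
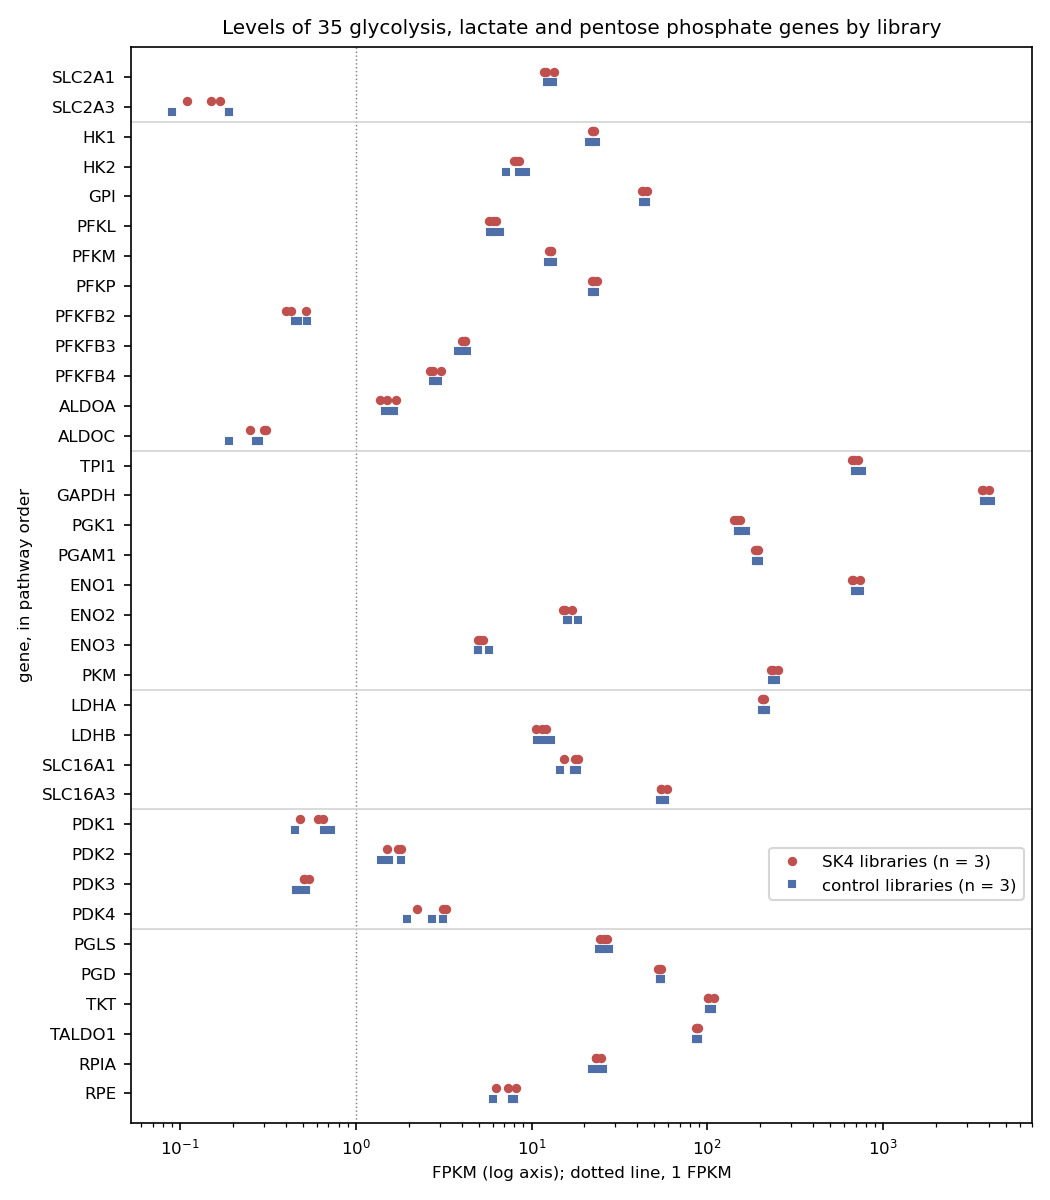
FPKM of each of the 35 genes (log axis) in the 3 SK4 libraries (circles) and the 3 control libraries (squares), in pathway order with grey lines between roles. The symbols of both groups lie over each other for every gene, from 0.09 FPKM for SLC2A3 to 4112 FPKM for GAPDH.

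None of the 30 tested genes was called higher or lower in SK4 cells (limma, adjusted p = 0.99997 for each). Over all 11139 tested genes 0.00898% were called, which is KCNN4 alone. None of the 30 had an unadjusted p below 0.05, the smallest being 0.226 for PGK1, while 1.65% of all tested genes did. In none of the 30 did all SK4 libraries lie above or below all control libraries. Over all tested genes 3.53% lay entirely above and 1.81% entirely below, so a count of 0 among 30 is close to what these shares give. The log2 fold change was positive in 10 and negative in 20 of the 30, with a median of -0.011, against a median of 0.011 over all tested genes, of which 6444 were positive and 4695 negative. Of the 8 lower glycolysis genes 7 were negative, from -0.080 for ENO2, and PKM was at 0.014. Without control library 3, GAPDH (0.0067) and ENO3 (0.042) were positive, as was PKM (0.035). TPI1, PGK1, PGAM1, ENO1 and ENO2 stayed negative, from -0.022 for PGAM1 to -0.0052 for TPI1. With 1 library left out at a time the number of positive genes ran from 9 to 16 (the highest without SK4 library 3). SK4 library 2 and control library 3 differed most from the others of their group, by over 0.2 (log2) in 21.4% and 37.0% of tested genes. Without both, limma called 0 of the 30 and 4 of 10973 tested genes. In that fit 2 members, ENO1 and PDK2, had an unadjusted p below 0.05 (adjusted p = 0.97192 for each), beside 559 of the 10973 genes. The 6 pentose phosphate genes split into 3 positive and 3 negative.

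All 30 intervals lay inside 1.5-fold in either direction at 95% confidence, and 25 of them inside 1.2-fold. The 5 that reached past 1.2-fold were ALDOA, SLC16A1, PDK2, PDK4 and RPE. Over all tested genes 96.8% lay inside 1.5-fold and 57.7% inside 1.2-fold. For GAPDH the interval ran from 0.900 to 1.06, for ENO1 from 0.906 to 1.05, for PKM from 0.944 to 1.08 and for SLC16A3 from 0.923 to 1.07.

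**Figure D2:**
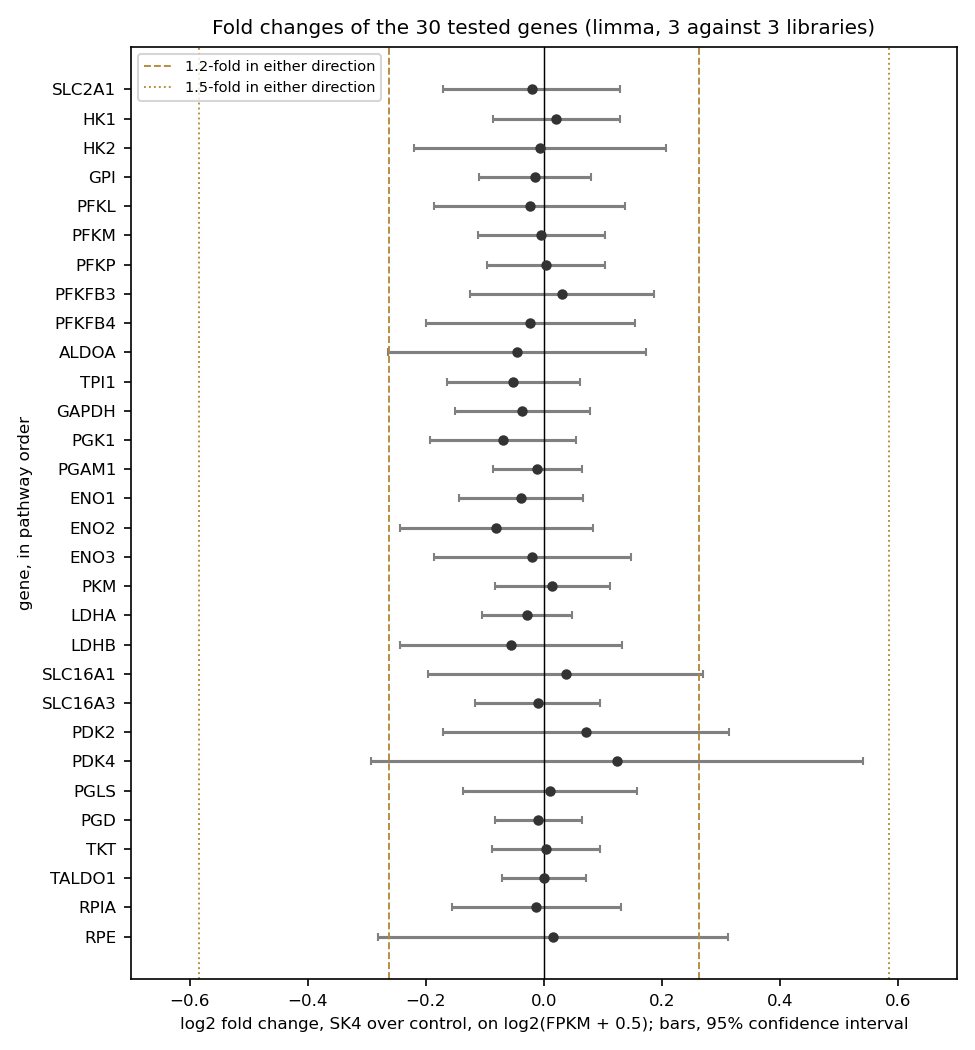
Log2 fold change of SK4 over control libraries (points) with its 95% confidence interval (bars) for the 30 tested genes, with dashed lines at 1.2-fold and dotted lines at 1.5-fold. Every interval crosses 0, and the widest is that of PDK4, with an upper end at a fold of 1.45.

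Levels of 2 genes of the set rest on rows that share exons with a far more abundant gene. ALDOA, the aldolase of muscle and most dividing cells, was listed at 1.56 FPKM. The genes of the steps before and after it were at 22.5 FPKM (PFKP) and 702 FPKM (TPI1). In GENCODE 29 on GRCh38 ALDOA lies on chromosome 16 at 30064164 to 30070457, plus strand. Another gene, CTD-2515O10.6 (ENSG00000285043.3), spans 30053090 to 30070420 on the same strand and shares 1657 exonic bases with it, 42.3% of the exonic bases of ALDOA. CTD-2515O10.6 held 406, 447 and 417 FPKM in SK4 libraries, against 427, 416 and 461 FPKM in control libraries. Both groups overlapped, and the mean was 276 times that of ALDOA.

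LDHB, the lactate dehydrogenase subunit of heart type, was at 11.6 FPKM by its own row. It lies on chromosome 12 at 21635342 to 21757857, minus strand. The gene ENSG00000285854.1, at 21536203 to 21657798 on the same strand, shares 997 exonic bases, 33.4% of those of LDHB. ENSG00000285854.1 held 151, 128 and 148 FPKM in SK4 libraries, against 158, 153 and 124 FPKM in control libraries. The rule by which fragments in shared exons were assigned is not given in the sources used here, so the level of either gene alone cannot be told apart from that of its partner. Neither partner was called between the groups (limma, adjusted p = 0.99997 for both, log2 fold changes -0.038 and -0.021).

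**Figure D3:**
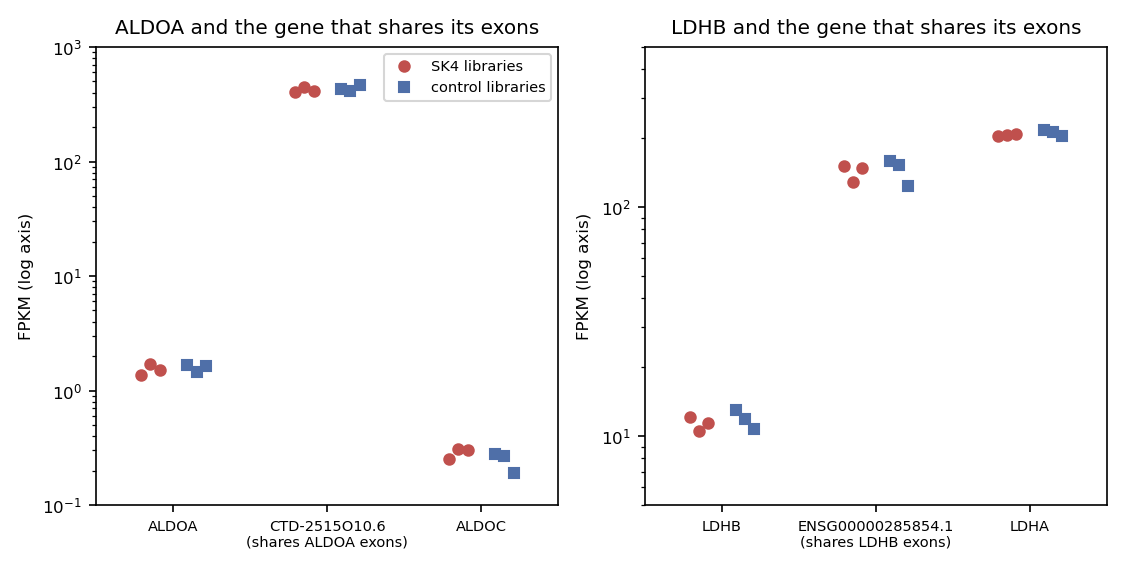
FPKM (log axis) of ALDOA and LDHB, of the same-strand gene that shares exons with each, and of the other gene of the same step, in SK4 libraries (circles) and control libraries (squares). The exon-sharing gene lies far above ALDOA (429 against 1.56 FPKM) and above LDHB (144 against 11.6 FPKM), while both groups overlap for every gene shown.

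Other overlaps were smaller or on the opposite strand. In all, 21 of the 35 genes had exonic overlap with another gene of the table, and 4 had a partner at a higher level, of which ENO3 and PFKFB2 had it on the opposite strand. ENO3 (5.16 FPKM) shares 111 bases with PFN1, the profilin gene, at 660.3 FPKM, and PFKFB2 (0.467 FPKM) shares 315 bases with YOD1 at 1.91 FPKM. An antisense gene of 422 bases that lies wholly within the exons of GAPDH, RP5-940J5.9, was listed at 1606 ± 107 FPKM in SK4 and 1688 ± 351 FPKM in control libraries (SD, n = 3 each). The libraries kept the strand, and use of the strand in counting is not stated. Without strand, the reads of such pairs cannot be told apart.

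Of the 2 glucose transporter genes of the set, SLC2A1 was far above SLC2A3. SLC2A1 encodes GLUT1, the basal glucose transporter, and SLC2A3 encodes GLUT3, which has a higher affinity for glucose. SLC2A1 held 12.2, 13.5 and 11.8 FPKM in SK4 libraries, against 12.5, 12.2 and 13.3 FPKM in control libraries. The highest level was in SK4 library 2 and the lowest in SK4 library 3, so the groups overlapped (log2 fold change -0.021, with a 95% confidence interval of the fold of 0.888 to 1.09). SLC2A3 held 0.15, 0.17 and 0.11 FPKM in SK4 libraries, against 0.19, 0.19 and 0.09 FPKM in control libraries, values that rest on an estimated 16.4 to 45.1 fragments. SLC2A1 made up 98.9% ± 0.177 of the summed FPKM of these 2 genes in SK4 and 98.8% ± 0.487 in control libraries (SD, n = 3 each). Of the other transporter genes, SLC2A6, whose protein GLUT6 sits largely on internal membranes, was higher than SLC2A1 by its mean level, at 17.1 ± 1.19 FPKM in SK4 and 15.2 ± 0.642 FPKM in control libraries (SD, n = 3 each). A wider share was taken over 9 transporter genes chosen by name, which need not be all of the family. Of their summed FPKM, SLC2A1 gave 36.2, 39.1 and 38.2% in SK4 libraries, against 39.3, 40.0 and 42.6% in control libraries. SLC2A6 gave 53.3, 51.0 and 50.9% in SK4 libraries, against 50.2, 49.4 and 47.0% in control libraries. By these wider shares SLC2A1 lay below and SLC2A6 above in every SK4 library, a difference that was not tested. Both are parts of the same sum, so the 2 shares are not independent, and the levels of SLC2A1 and of SLC2A6 overlapped between the groups. The shares of the other genes of the 9 overlapped.

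Of the 2 hexokinase genes of the set, HK1, the housekeeping form, was above HK2, the form induced in muscle and many tumours. Both enzymes bind mitochondria. HK1 held 22.2, 22.3 and 22.7 FPKM in SK4 libraries, against 23.2, 21.8 and 21.2 FPKM in control libraries. HK2 held 8.49, 7.98 and 8.2 FPKM in SK4 libraries, against 9.26, 8.51 and 7.15 FPKM in control libraries. HK2 was highest in control library 1 and lowest in control library 3, and the 3 SK4 libraries lay between them. HK1 gave 73.1% ± 0.693 of the summed FPKM of these 2 genes in SK4 and 72.7% ± 1.78 in control libraries (SD, n = 3 each). HKDC1, a further hexokinase family gene, held 11.0 ± 0.115 FPKM in SK4 and 11.4 ± 1.39 FPKM in control libraries, above HK2, and ADPGK, an ADP-using kinase of glucose, 9.69 ± 0.207 FPKM in SK4 and 9.87 ± 0.418 FPKM in control libraries, also above HK2 (SD, n = 3 each). With these and the remaining hexokinase genes looked at in the sum, HK1 gave 43.6% ± 0.538 in SK4 and 42.8% ± 1.62 in control libraries.

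GPI, which interconverts glucose 6-phosphate and fructose 6-phosphate, was steady between libraries. GPI held 42.3, 45.4 and 43.0 FPKM in SK4 libraries, against 44.0, 43.0 and 45.0 FPKM in control libraries. Its highest and lowest libraries differed 1.07-fold, and both were SK4 libraries.

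Phosphofructokinase was a mix of 3 genes led by the platelet type. PFKP made up 54.5% ± 0.418 of the step in SK4 and 54.2% ± 0.586 in control libraries, PFKM, the muscle type, 30.9% ± 0.716 of the step in SK4 and 31.0% ± 1.05 in control libraries, and PFKL, the liver type, 14.5% ± 0.339 of the step in SK4 and 14.8% ± 1.13 in control libraries (SD, n = 3 each). PFKP held 22.0, 23.4 and 22.3 FPKM in SK4 libraries, against 23.0, 22.2 and 22.3 FPKM in control libraries. PFKM held 12.9, 12.9 and 12.6 FPKM in SK4 libraries, against 13.0, 13.2 and 12.4 FPKM in control libraries. The order PFKP, PFKM, PFKL held in each of the 6 libraries with no overlap of their ranges. PFKL held 5.74, 6.28 and 6.03 FPKM in SK4 libraries, against 5.93, 5.82 and 6.65 FPKM in control libraries, highest in control library 3.

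The PFKFB genes encode the bifunctional enzymes that make and remove fructose 2,6-bisphosphate, a strong allosteric activator of phosphofructokinase. PFKFB3, whose enzyme has mostly kinase activity, led with 55.7% ± 1.32 of the step in SK4 and 54.5% ± 1.94 in control libraries. PFKFB4 followed with 38.2% ± 2.03 of the step in SK4 and 39.0% ± 2.25 in control libraries and PFKFB2 with 6.09% ± 0.833 of the step in SK4 and 6.54% ± 0.415 in control libraries (SD, n = 3 each). PFKFB3 held 4.2, 4.16 and 4.0 FPKM in SK4 libraries, against 3.82, 4.3 and 3.96 FPKM in control libraries. PFKFB4 held 2.66, 3.07 and 2.75 FPKM in SK4 libraries, against 2.95, 2.77 and 2.91 FPKM in control libraries. The ranges of PFKFB3 and PFKFB4 did not overlap, and neither gene separated the groups. PFKFB2 stayed at 0.4 to 0.53 FPKM, under the filter.

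For aldolase, the rows of ALDOA and ALDOC, the brain type, cannot give the makeup of the step. ALDOA held 1.37, 1.7 and 1.5 FPKM in SK4 libraries, against 1.66, 1.46 and 1.64 FPKM in control libraries. ALDOC was at 0.19 to 0.31 FPKM over all libraries, an estimated 16.5 to 33.7 fragments. By these rows ALDOA gave 84.2% ± 0.715 of the step in SK4 and 86.5% ± 2.74 in control libraries. With CTD-2515O10.6 added to ALDOA it gave 99.9% in SK4 and 99.9% in control libraries. The sum joins rows of different exonic length and is a description only.

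The lower steps, from triose phosphate isomerase to pyruvate kinase, were represented by 8 genes, all tested. TPI1 interconverts the 2 triose phosphates made by aldolase. TPI1 held 663, 717 and 686 FPKM in SK4 libraries, against 688, 694 and 761 FPKM in control libraries. GAPDH, which makes NADH and is often used as a reference gene, is next. GAPDH held 3634, 3983 and 3716 FPKM in SK4 libraries, against 3785, 3730.1 and 4112 FPKM in control libraries. Both genes were highest in control library 3 and second highest in SK4 library 2. PGK1, the first step that yields ATP, followed the same order. PGK1 held 142, 154 and 148 FPKM in SK4 libraries, against 149, 149.9 and 167 FPKM in control libraries.

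PGAM1, a phosphoglycerate mutase, varied less, with 186 to 196 FPKM over all libraries. Among enolases ENO1, the ubiquitous form, gave 97.1% ± 0.00439 of the step in SK4 and 97.0% ± 0.135 in control libraries, ENO2, the neuronal form, 2.22% ± 0.023 of the step in SK4 and 2.29% ± 0.0994 in control libraries, and ENO3, the muscle form, 0.717% ± 0.0239 of the step in SK4 and 0.708% ± 0.0352 in control libraries (SD, n = 3 each). ENO1 held 668, 735 and 676 FPKM in SK4 libraries, against 695, 701 and 738 FPKM in control libraries. ENO2 held 15.1, 17.0 and 15.5 FPKM in SK4 libraries, against 16.2, 16.0 and 18.3 FPKM in control libraries. The SK4 and control values of ENO2 overlapped, with the highest value in control library 3 (log2 fold change -0.080, with a 95% confidence interval of the fold of 0.844 to 1.06). This was the lowest fold change of the 30 tested genes and it did not pass the test (limma, unadjusted p = 0.285). Without control library 3 it was -0.020. PKM held 232, 253 and 236 FPKM in SK4 libraries, against 233, 235 and 245 FPKM in control libraries, highest in SK4 library 2. PKM encodes both the M1 and the M2 pyruvate kinase by alternative splicing, and gene values do not separate them.

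Lactate dehydrogenase was led by LDHA, the form of muscle and many tumours. LDHA held 205, 207 and 209 FPKM in SK4 libraries, against 217, 213 and 204 FPKM in control libraries. The groups overlapped, and the highest library was control library 1 (log2 fold change -0.029, with a 95% confidence interval of the fold of 0.930 to 1.03). LDHB held 12.1, 10.5 and 11.5 FPKM in SK4 libraries, against 13.0, 11.8 and 10.8 FPKM in control libraries. By these rows LDHA gave 94.8% ± 0.368 of the step in SK4 and 94.7% ± 0.319 in control libraries (SD, n = 3 each). With ENSG00000285854.1 added to LDHB, LDHB gave 44.4, 40.1 and 43.2% in SK4 libraries, against 44.1, 43.6 and 39.7% in control libraries, so the balance of the 2 subunits depends on which row the shared fragments went to. LDHC, the testis form, was at 1.9 ± 0.478 FPKM in SK4 and 1.61 ± 0.165 FPKM in control libraries (SD, n = 3 each).

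Lactate transport was represented by SLC16A3, which encodes MCT4, the exporter of highly glycolytic cells, and SLC16A1, which encodes MCT1 and moves lactate in either direction. SLC16A3 held 54.8, 58.7 and 54.2 FPKM in SK4 libraries, against 57.2, 54.0 and 57.8 FPKM in control libraries. SLC16A1 held 18.4, 15.3 and 17.8 FPKM in SK4 libraries, against 17.5, 18.2 and 14.6 FPKM in control libraries. SLC16A1 was lowest in control library 3 and next lowest in SK4 library 2, the libraries in which SLC16A3 was second highest and highest. SLC16A3 gave 76.5% ± 2.44 of the step in SK4 and 77.1% ± 2.58 in control libraries (SD, n = 3 each). BSG, the chaperone basigin that both transporters need at the membrane, was at 308 ± 9.45 FPKM in SK4 and 304 ± 9.75 FPKM in control libraries (SD, n = 3 each).

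Pyruvate dehydrogenase kinases were all low, at 0.502 to 2.74 FPKM on average. PDK4, the form induced by fasting and fatty acids, was the most abundant. PDK4 held 3.12, 2.23 and 3.27 FPKM in SK4 libraries, against 3.14, 2.73 and 1.95 FPKM in control libraries. It was lowest in control library 3 and SK4 library 2, and its highest library was 1.68 times its lowest, the widest spread of the 30 tested genes. Its fold change was the highest of the 30 (log2 fold change 0.12, with a 95% confidence interval of the fold of 0.816 to 1.45) and did not pass the test (limma, unadjusted p = 0.507). Without control library 3 its log2 fold change was -0.038, of the opposite sign. PDK2 held 1.74, 1.5 and 1.82 FPKM in SK4 libraries, against 1.4, 1.55 and 1.8 FPKM in control libraries. PDK4 gave 50.5% ± 2.86 of the step in SK4 and 48.9% ± 6.88 in control libraries and PDK2 29.95% ± 1.61 of the step in SK4 and 30.5% ± 7.2 in control libraries (SD, n = 3 each). PDK1, a hypoxia-induced form, was at 0.45 to 0.72 FPKM and PDK3 at 0.46 to 0.54 FPKM. An FPKM near these levels rests on few fragments: an estimated 68.9 in the lowest library for PDK3, a counting error of 12.0%.

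In the pentose phosphate pathway the non-oxidative enzymes TKT and TALDO1 had the highest levels of the 6 genes of the set. PGLS, the lactonase of the oxidative branch, was at 25.7 ± 1.32 FPKM in SK4 and 25.6 ± 1.83 FPKM in control libraries, and PGD, an NADPH-producing enzyme, at 53.6 ± 0.834 FPKM in SK4 and 54.0 ± 0.240 FPKM in control libraries (SD, n = 3 each). H6PD, a sugar phosphate dehydrogenase of the endoplasmic reticulum outside the 35, was at 6.37 ± 0.160 FPKM in SK4 and 6.48 ± 0.0764 FPKM in control libraries (SD, n = 3 each). PGD held 52.7, 53.8 and 54.3 FPKM in SK4 libraries, against 53.9, 53.7 and 54.2 FPKM in control libraries. Its libraries differed 1.03-fold from lowest to highest, the narrowest spread of the set. Of the non-oxidative enzymes, transketolase led. TKT held 101, 109 and 101 FPKM in SK4 libraries, against 102, 102 and 106 FPKM in control libraries. TALDO1, transaldolase, was at 87.3 ± 1.23 FPKM in SK4 and 87.3 ± 1.26 FPKM in control libraries, with the same mean to within 0.00333 FPKM (95% confidence interval of the fold 0.952 to 1.05).

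RPIA, the ribose 5-phosphate isomerase, was at 23.7 ± 0.914 FPKM in SK4 and 24.0 ± 1.76 FPKM in control libraries (SD, n = 3 each). RPE, the ribulose-phosphate epimerase, varied more. RPE held 8.21, 6.3 and 7.35 FPKM in SK4 libraries, against 7.72, 7.94 and 6.0 FPKM in control libraries. It was lowest in control library 3 and next lowest in SK4 library 2, and the group means were within the spread of either group (95% confidence interval of the fold 0.823 to 1.24).

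Among the genes of the set, the share of each within its step did not separate the groups. The 18 shares tested over 9 steps all had overlapping groups, with exact two-sided permutation p from 0.3 upward and an adjusted p of 1 for each. The smallest p that 3 against 3 libraries allow is 0.1. The largest difference was that of ALDOA, at -2.37 percentage points, SK4 minus control, which rests on ALDOC at under 1 FPKM. It was -0.821 points without control library 3, where the largest was that of PDK2, at 3.54 points. Among steps whose genes all passed the filter, the largest difference of a step was 0.587 points for SLC16A1, 0.405 for HK1 and 0.273 for PFKP. It was 0.101 points for LDHA and -0.0693 for ENO2. The PDK step varied most within a group. PDK2 gave 28.8, 31.8 and 29.3% in SK4 libraries, against 24.7, 28.1 and 38.5% in control libraries, highest in control library 3.

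**Figure D4:**
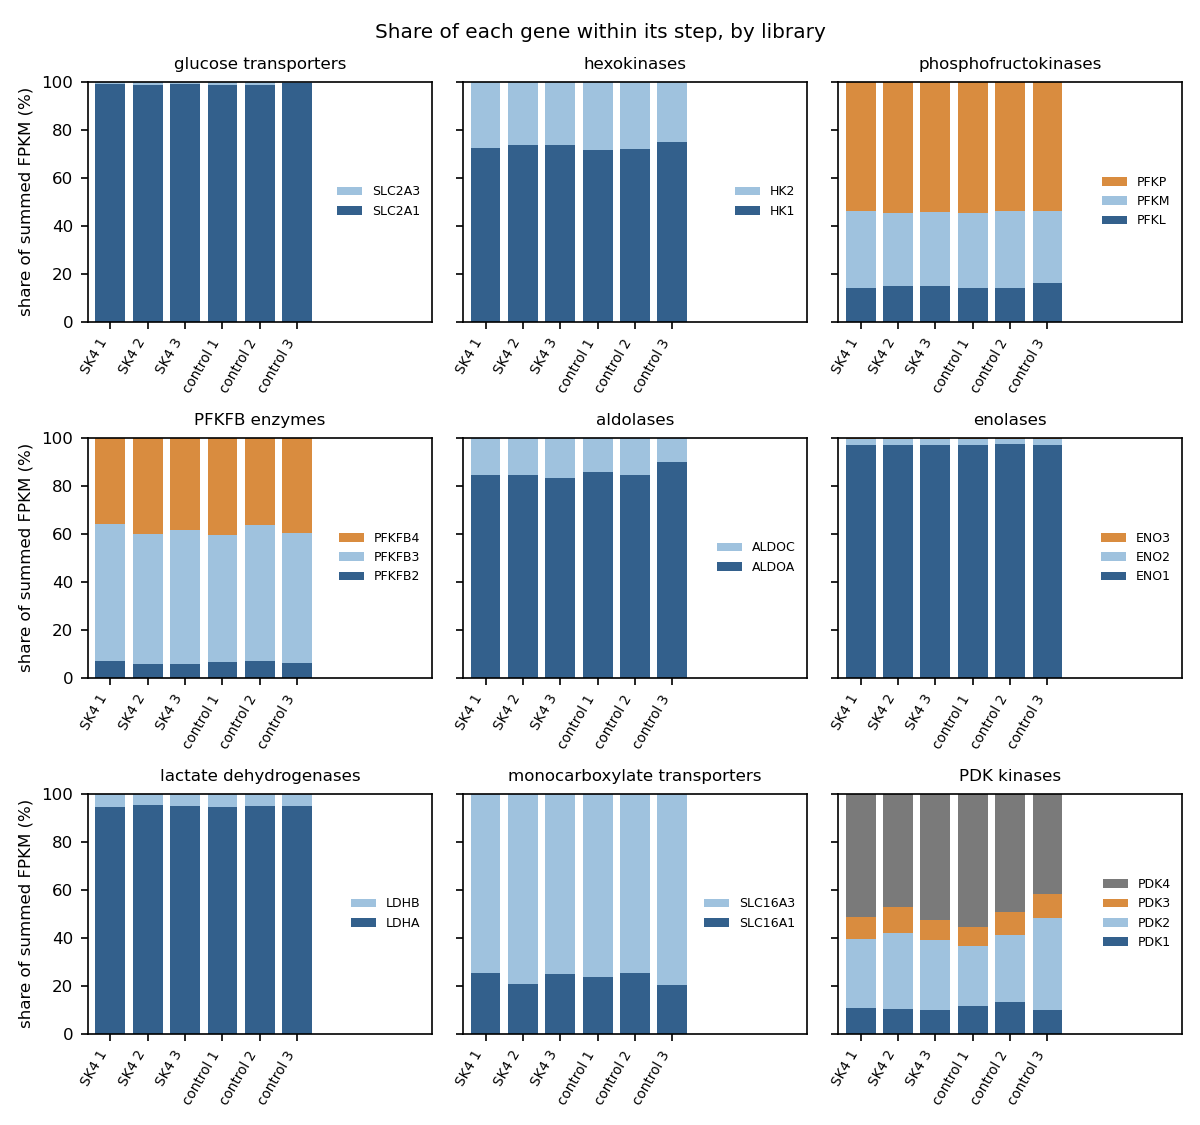
Share of each gene in the summed FPKM of its step (stacked bars, percent) for 9 steps, in SK4 libraries 1 to 3 (left) and control libraries 1 to 3 (right), by the rows of the genes themselves. No share separates the groups, and the widest spreads are those of PDK2, from 24.7% to 38.5%, and PDK4, from 41.8% to 55.5%.

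Within each group, 1 library stood apart from the other 2 in these genes, control library 3 and SK4 library 2. Set against the mean of the other 2 libraries of its group, control library 3 had log2 differences of -0.48 for PDK4, -0.36 for RPE, -0.29 for HK2 and -0.28 for SLC16A1, and of 0.22 for PDK2, 0.18 for ENO2 and 0.13 for GAPDH. SK4 library 2 had -0.44 for PDK4, -0.28 for RPE, -0.061 for HK2 and -0.23 for SLC16A1, and 0.15 for ENO2 and 0.12 for GAPDH, but -0.19 for PDK2. PDK4, RPE, SLC16A1 and HK2 were thus low and ENO2 and GAPDH high in both, and PDK2 was high in one and low in the other. Across the 30 tested genes, the deviations of these 2 libraries from their group means had a correlation of 0.772 and the same sign in 23 genes. Over all 11139 tested genes the correlation was 0.528 and the sign the same in 72.4%. Of the 9 pairs of an SK4 and a control library, SK4 library 1 and control library 2 had the highest correlation over the 30 genes, 0.833, with the same sign in 26, and 0.341 over all tested genes. The deviations of the 3 libraries of a group sum to 0, so these pairs are not independent, and genes are not independent replicates.

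GC content moved with this pattern. The rank correlation between a gene's deviation and the GC content of its longest transcript was 0.684 in control library 3 and 0.508 in SK4 library 2 over the 30 genes, and 0.627 and 0.633 over 11066 tested genes with a GC value. In the other 4 libraries it lay between -0.626 and -0.425 over the 30 genes. RPE and PDK4 had the lowest GC content of the 30, 36.6% and 39.4%, and PFKL the highest, 64.1%. PGK1, next to PDK4 at 43.3%, went the other way, with 0.084 in SK4 library 2 and 0.16 in control library 3. The part of GC content and of the lower depth of control library 3 in the pattern was not tested.

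**Figure D5:**
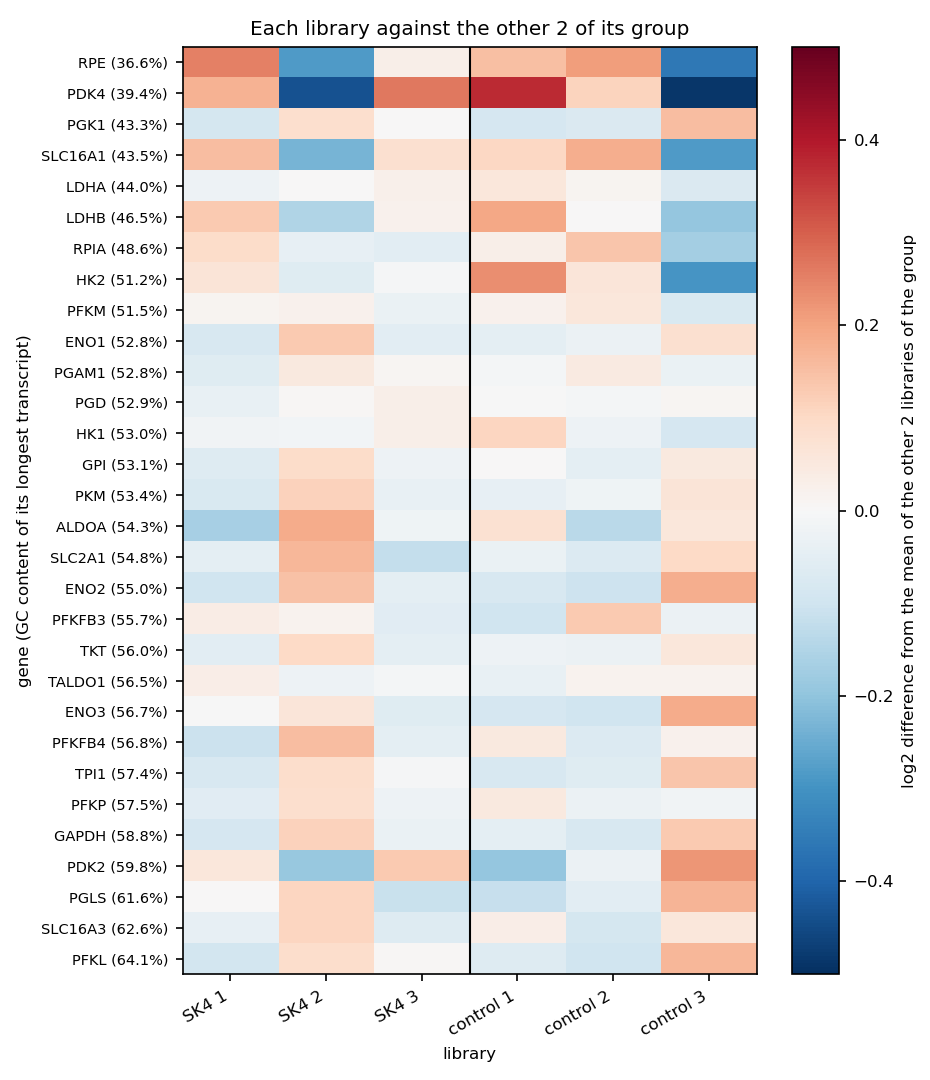
Log2 difference of each library from the mean of the other 2 of its group, for the 30 tested genes ordered by the GC content of the longest transcript (given beside each name), with SK4 libraries left of the line and control libraries right. SK4 library 2 and control library 3 are blue for RPE and PDK4 at the top. PGK1, next in GC content, is red in both, and SLC16A1, LDHB, RPIA and HK2 below it are blue in both. Further down, where GC content is higher, both libraries are mostly red.

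Among the tested genes with an entry in the RefSeq promoter set, the 4 with the widest range of log2(FPKM + 0.5) over the libraries were PDK4, RPE, HK2 and PDK2. Their promoters are shown because PDK4, RPE and HK2 were low in both of these libraries and PDK2 in only one. They are from RefSeq on GRCh38.p14, run 5′ to 3′ from 250 bases before to 50 after the gene start, and belong to PDK4 (chr7:95596467-95596766, minus strand), RPE (chr2:210002388-210002687, plus strand), HK2 (chr2:74833877-74834176, plus strand) and PDK2 (chr17:50094487-50094786, plus strand). Capitals mark ACGTG on either strand, the core that hypoxia-inducible factors bind.
PDK4: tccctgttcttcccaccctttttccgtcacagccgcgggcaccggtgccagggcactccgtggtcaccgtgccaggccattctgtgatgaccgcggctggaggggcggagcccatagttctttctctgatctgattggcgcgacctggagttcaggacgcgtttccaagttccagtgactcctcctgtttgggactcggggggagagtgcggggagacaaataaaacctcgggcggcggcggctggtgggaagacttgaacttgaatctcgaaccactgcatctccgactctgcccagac
RPE: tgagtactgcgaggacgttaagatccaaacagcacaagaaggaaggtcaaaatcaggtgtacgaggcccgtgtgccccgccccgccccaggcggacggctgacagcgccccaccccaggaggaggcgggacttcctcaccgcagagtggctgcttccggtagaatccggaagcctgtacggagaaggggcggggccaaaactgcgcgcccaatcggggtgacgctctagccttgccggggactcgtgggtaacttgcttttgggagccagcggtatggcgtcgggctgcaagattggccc
HK2: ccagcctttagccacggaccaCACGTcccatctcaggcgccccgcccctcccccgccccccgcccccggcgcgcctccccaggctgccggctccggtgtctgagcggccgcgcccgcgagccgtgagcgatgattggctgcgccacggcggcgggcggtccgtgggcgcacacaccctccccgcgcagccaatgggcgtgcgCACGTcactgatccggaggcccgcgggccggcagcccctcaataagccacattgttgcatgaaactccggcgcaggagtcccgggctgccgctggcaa
PDK2: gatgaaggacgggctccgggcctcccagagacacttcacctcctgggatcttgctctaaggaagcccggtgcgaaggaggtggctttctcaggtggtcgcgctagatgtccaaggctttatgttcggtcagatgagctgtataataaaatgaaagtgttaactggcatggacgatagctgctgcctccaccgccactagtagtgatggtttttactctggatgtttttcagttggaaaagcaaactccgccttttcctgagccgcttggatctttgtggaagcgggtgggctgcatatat

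HK2 held 2 such matches and the other 3 promoters held 0. Promoters of 32 of the 35 genes were in the RefSeq set, and 10 of them (31.2%) held the motif, against 21.6% of 27305 promoters of the same length. LDHA had 5 matches, PGK1 and ALDOC 3 each, GAPDH 2, and GPI, ALDOA, ENO2, PDK3 and PGD 1 each. The log2 fold change was -0.029 for LDHA, -0.069 for PGK1 and -0.0068 for HK2, none past the test. A match is a match of letters only.

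Beside the 35, 37 further genes of these pathways were tested of 59 looked at, and limma called 0 higher and 0 lower, with 1 at an unadjusted p below 0.05, SLC2A6. Over all tested genes 1.65% had such a p. Of the 37, 21 had a positive and 16 a negative fold change, and the median log2 fold change was 0.021. SLC2A6 held 17.9, 17.6 and 15.7 FPKM in SK4 libraries, against 15.9, 15.1 and 14.7 FPKM in control libraries (log2 fold change 0.16, with a 95% confidence interval of the fold of 1.01 to 1.24; unadjusted p = 0.0374). MPC1, a subunit of the mitochondrial pyruvate carrier, had all SK4 libraries above all control libraries. MPC1 held 9.41, 9.58 and 9.76 FPKM in SK4 libraries, against 8.79, 9.2 and 8.6 FPKM in control libraries (log2 fold change 0.11, with a 95% confidence interval of the fold of 0.994 to 1.17; unadjusted p = 0.0655). Its partner MPC2 overlapped, at 14.2 ± 0.758 FPKM in SK4 and 13.8 ± 0.411 FPKM in control libraries (SD, n = 3 each). In all, 3 of these 37 genes lay entirely above (MPC1, PCK2 and RBKS) and 0 entirely below. Over all tested genes 3.53% lay entirely above and 1.81% entirely below, and whether the 37 differ from these shares was not tested. Next in p were GALK1, galactokinase, PCK2, the mitochondrial PEP carboxykinase, and LDHC, with log2 fold changes of -0.068, 0.053 and 0.17. The adjusted p was 0.99997 for each of them (limma).

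FBP1, TIGAR, BPGM and G6PC3, whose enzymes oppose or divert the route, had overlapping groups, unlike PCK2. FBP1, the gluconeogenic bisphosphatase, was at 0 to 0.07 FPKM and TIGAR, a p53-induced bisphosphatase, at 0.46 to 0.55 FPKM over all libraries. BPGM, which diverts to bisphosphoglycerate, was at 7.10 ± 0.886 FPKM in SK4 and 7.03 ± 1.01 FPKM in control libraries, and the glucose 6-phosphatase gene G6PC3 at 27.9 ± 1.11 FPKM in SK4 and 27.1 ± 0.684 FPKM in control libraries (SD, n = 3 each).

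Regulators of glycolytic genes were also not called, 0 higher and 0 lower of 17 tested by limma, and 0 had an unadjusted p below 0.05, against 1.65% of all tested genes. The median log2 fold change was 0.015, with 9 positive and 8 negative. HIF1A, the oxygen-regulated subunit of hypoxia-inducible factor, is set mainly at the protein level. HIF1A held 10.8, 8.16 and 9.52 FPKM in SK4 libraries, against 8.8, 9.78 and 6.94 FPKM in control libraries (log2 fold change 0.16). It was lowest in control library 3 and SK4 library 2, as PDK4 and RPE were. MYC, a transcriptional activator of many glycolytic genes, was at 113 ± 3.39 FPKM in SK4 and 108 ± 6.30 FPKM in control libraries, EPAS1, the second hypoxia-inducible subunit, at 7.98 ± 0.477 FPKM in SK4 and 7.46 ± 0.410 FPKM in control libraries, and TXNIP, a glucose-induced inhibitor of glucose uptake, at 14.5 ± 0.531 FPKM in SK4 and 14.0 ± 0.652 FPKM in control libraries (SD, n = 3 each).

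Among 18 tested genes known for induction by hypoxia and outside glycolysis, 0 were called higher and 0 lower (limma), and 1, NDUFA4L2, had an unadjusted p below 0.05. Over all tested genes 1.65% had such a p, and whether the 18 differ from this share was not tested. Of the 18, 6 had a positive and 12 a negative fold change, with a median log2 fold change of -0.012. CA9, a carbonic anhydrase, and NDUFA4L2, a complex IV-associated protein, varied widely. CA9 held 0.85, 1.89 and 0.81 FPKM in SK4 libraries, against 2.32, 1.16 and 3.58 FPKM in control libraries. NDUFA4L2 held 1.01, 2.58 and 1.48 FPKM in SK4 libraries, against 4.61, 1.89 and 6.42 FPKM in control libraries (log2 fold change -1.07, unadjusted p = 0.0343, adjusted p = 0.99997, limma). Both genes overlapped between the groups. Both were highest in control library 3, and within the SK4 group highest in library 2. NDRG1, a stress-induced gene, was at 1.98 ± 0.278 FPKM in SK4 and 2.48 ± 0.372 FPKM in control libraries (SD, n = 3 each; log2 fold change -0.27, unadjusted p = 0.0629, limma). In control library 3, where CA9 and NDUFA4L2 were highest, genes of the set went both ways. Among others, HK2, PDK1 and LDHA were at their lowest, at 7.15, 0.45 and 204 FPKM. PGK1, GAPDH, TPI1, ENO1 and ENO2 were at their highest, at 167, 4112, 761, 738 and 18.3 FPKM. EGLN3, an oxygen-sensing hydroxylase gene counted among both the regulators and the hypoxia-induced genes, was the only one of either list with groups apart. Of all tested genes, 1.81% had SK4 entirely below and 3.53% entirely above, so 1 such gene is no result about these lists. EGLN3 held 8.09, 7.91 and 8.0 FPKM in SK4 libraries, against 8.32, 8.41 and 8.2 FPKM in control libraries (log2 fold change -0.052, unadjusted p = 0.302, limma).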

How the data were processed

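Polyadenylated RNA of 6 BHT101 libraries was sequenced as strand-marked 150 nt paired-end reads, per the labels' protocols. HISAT2 and the build GRCh38 were used, per the submitters' processing notes; the counter, its use of strand and the gene annotation are not stated there. FPKM values with 2 decimals, 1 column per library, were deposited by the authors. FPKM adjusts for depth and length but leaves in place any difference between libraries in how well GC-rich transcripts were recovered.

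Values were taken as log2(FPKM + 0.5) where a gene reached 1 FPKM in 3 or more libraries, and compared with limma 3.58.1 in R 4.3.3 (trended and robust prior variance, group as the only term, Benjamini-Hochberg adjustment over all tested genes, threshold 0.05). On this scale the fold change of a low gene is understated. The fit was tested on simulated data with independent noise in each gene and library. Those data hold no pattern shared between genes, and the changes put in were far larger than the fold changes of the tested members. They cannot judge the fit on either point. Shares within a step were compared by exact two-sided permutation tests (scipy 1.17.1). No count test was run on FPKM. Depth was estimated from the steps of 561 single-exon genes under 160 nt, of whose values worth up to 5 fragments 99.4% to 99.5% were whole within 0.1. Fragment numbers of a gene are its FPKM times this depth and its exonic length in GENCODE 29, and cover counting error only. Gene positions, exons and GC content came from GENCODE 29 on GRCh38, matched by identifier without its version (35 of 35 genes). The authors' release may differ.

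All 35 genes are named, with KCNN4. From lists of 63 other pathway genes, 21 regulators and 22 other hypoxia-induced genes, a few fixed names and those with the smallest p are given; RBKS and EGLN3 were named after their values were seen. The members and lists were chosen with earlier results of these data known. Other settings tried were 2 pseudocounts, 2 filters, TPM scaling and quantile normalization, weighted libraries, a constant prior variance, a block for the replicate number, each library left out, and 2 chosen after seeing the data. Some results of the other pathway list are not reported here.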

Additional observations from a re-analysis of the deposited data

How the results depend on the processing

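No member was called under any of the 16 other settings of the fit, and KCNN4 alone was called over all genes except without control library 3 and SK4 library 2 together, a setting chosen after seeing the data, where 4 genes were called and the members called stayed at 0. That setting had 4 libraries. KCNN4 had log2 fold changes of 4.16 to 4.32 without 1 library at a time. The count of genes at an unadjusted p below 0.05 was 184, and 753 with no filter, 88 at a mean of at least 5 FPKM, 905 with library weights, 559 without both libraries and 139 to 410 without 1 library. Members at that level numbered 1 with library weights (PDK2) and 2 without both libraries (ENO1 and PDK2), against 0. They stand beside 905 of 11139 tested genes with library weights and 559 of 10973 without both libraries. Members with a positive fold change numbered 10 of 30, 6 after quantile normalization and 9 to 16 without 1 library. Since the fold changes lie near 0, their sign is not stable: 24 of 30 members changed sign without some library. Ranges of the log2 fold change without 1 library at a time were -0.076 to 0.019 for SLC2A1, -0.0073 to 0.057 for HK1, -0.10 to 0.071 for HK2, -0.045 to 0.0063 for GPI, -0.058 to 0.031 for PFKL, -0.030 to 0.015 for PFKM, -0.024 to 0.022 for PFKP, -0.0024 to 0.074 for PFKFB3, -0.075 to 0.013 for PFKFB4, -0.11 to 0.0089 for ALDOA, -0.075 to 0.0067 for GAPDH, -0.028 to 0.0086 for PGAM1, -0.053 to 0.042 for ENO3, -0.024 to 0.039 for PKM, -0.12 to 0.0076 for LDHB, -0.058 to 0.11 for SLC16A1, -0.045 to 0.011 for SLC16A3, -0.038 to 0.27 for PDK4, -0.028 to 0.067 for PGLS, -0.020 to 0.0023 for PGD, -0.030 to 0.023 for TKT, -0.012 to 0.0080 for TALDO1, -0.069 to 0.034 for RPIA, -0.10 to 0.11 for RPE. Changed in sign with library weights were PFKL (0.016), PFKP (-0.019), ENO3 (0.0065), PGD (0.0019), TKT (-0.0029), TALDO1 (0.0051), RPE (-0.054). Changed in sign after quantile normalization were PFKP (-0.0081), PGLS (-0.0022), TKT (-0.0023), RPE (-0.0018). Changed in sign without both libraries were HK1 (-0.0029), PFKL (0.0019), PFKP (-0.030), ENO3 (0.022), PKM (-0.0027), TKT (-0.011), TALDO1 (0.014), RPE (-0.011). For the shares, in percentage points of SK4 minus control, the ranges without 1 library were -0.041 to 0.39 for SLC2A1, -0.21 to 1.43 for HK1, -0.58 to 0.40 for PFKL, -0.54 to 0.51 for PFKM, -2.06 to 0.29 for PFKFB4, -0.015 to 0.11 for ENO1, -0.0044 to 0.029 for ENO3, -0.079 to 0.29 for LDHA, -0.81 to 1.99 for SLC16A1, -3.36 to 3.54 for PDK2, -0.63 to 0.66 for PDK3, -1.98 to 4.88 for PDK4. Without both libraries the shares changed in sign for PFKL (0.31), PFKP (-0.085), ENO1 (-0.014), PDK2 (2.63), PDK3 (-0.20), PDK4 (-0.35). PDK3 had -0.13 with 0.5 FPKM added to each gene, and LDHA -0.081 with the overlapping gene added to LDHB. The cause of these changes was not tested. With the replicate number as a block the fit called 1 gene and 0 members, with 133 genes at an unadjusted p below 0.05, and the paired exact test of a share cannot go below 0.25. Same-numbered libraries correlated at 0.306, -0.41 and -0.154 in their deviations from the group means. Whether same-numbered libraries belong together is not labelled. These values cannot decide it, since the deviations of a group sum to 0 and moved with GC content. At the depth given, values of the 5 members under the filter rest on an estimated 16.4 to 413 fragments (SLC2A3 and PDK1).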
